A study of Mus musculus with 8 samples.

Results

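The 10 genes described here are the mucins Muc1, Muc2, Muc4, Muc5ac, Muc5b, Muc6 and Muc13 and the trefoil factors Tff1, Tff2 and Tff3, chosen by name and not by a threshold on any value. All 10 were found among the 25239 genes of a deposited table, which writes their names in capitals (MUC1, MUC2, MUC4, MUC5AC, MUC5B, MUC6, MUC13, TFF1, TFF2 and TFF3), and each had a single row. The cells came from pancreatic ductal adenocarcinoma of C57BL/6 mice and were profiled by CUT&Tag, a method in which antibody-tethered transposase cuts DNA next to a histone mark and the freed fragments are sequenced. The groups were Setd2 knockout (KO) and Setd2 wild-type (WT) cells, each measured for promoter H3K27ac in a pair labelled vitro, promoter H3K27ac in a pair without that word, promoter H3K27me3 and gene-body H3K36me3, which gave 8 groups of 1 library. The sample labels describe cultured tumour cells, and the title of the series sorting from orthotopic tumours. The growth setting of the H3K27ac pair that lacks the word vitro was not resolved further. The H3K27me3 and H3K36me3 labels lack that word too, and whether their cells match those of the vitro H3K27ac pair was not resolved. How the knockout was made, and whether each genotype is 1 clone, was not found in the labels. With 1 library per group no difference below has a replicate check and no test was run.

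Mucins are large, heavily O-glycosylated proteins of epithelial surfaces. The transmembrane mucins (Muc1, Muc4 and Muc13) stay anchored in the apical membrane and can signal through their cytoplasmic tails, whereas the gel-forming mucins (Muc2, Muc5ac, Muc5b and Muc6) are secreted and make up mucus. Trefoil factors are small secreted peptides that accompany mucus and aid the repair of the epithelium: in the stomach Tff1 goes with Muc5ac in surface cells and Tff2 with Muc6 in mucous neck and gland cells, while Tff3 goes with Muc2 in intestinal goblet cells. The normal pancreatic duct carries Muc1, and gastric-type mucins and trefoil factors are known from early ductal lesions of the human pancreas. H3K27ac marks active promoters, H3K27me3 is the mark of Polycomb repression, and H3K36me3, the trimethyl mark that Setd2 writes, lies over transcribed gene bodies.

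The promoters of 4 members that carry the contrast described below are shown as the 250 bases before the RefSeq start (GRCm38.p6), with matches to any of the motifs named after the sequences, on either strand, in capitals. Muc1 (chr3:89228806-89229055, plus strand) had the strongest acetylation of the members and Muc13 (chr16:33793787-33794036, plus strand) the widest H3K27ac difference between the genotypes, while Muc2 (chr7:141690090-141690339, plus strand) and Muc6 (chr7:141655394-141655643, minus strand) are gel-forming mucins of 1 cluster with H3K27me3.
Muc1: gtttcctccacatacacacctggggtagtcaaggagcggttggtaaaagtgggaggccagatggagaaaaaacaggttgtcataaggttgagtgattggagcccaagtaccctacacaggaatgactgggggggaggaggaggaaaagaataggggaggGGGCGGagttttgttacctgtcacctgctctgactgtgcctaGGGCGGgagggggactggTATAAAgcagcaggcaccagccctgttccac
Muc13: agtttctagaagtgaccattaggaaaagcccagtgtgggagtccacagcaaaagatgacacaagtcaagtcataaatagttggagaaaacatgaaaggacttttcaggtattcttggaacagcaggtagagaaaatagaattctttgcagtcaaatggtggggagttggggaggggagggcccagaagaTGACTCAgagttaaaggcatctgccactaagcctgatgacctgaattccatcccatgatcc
Muc2: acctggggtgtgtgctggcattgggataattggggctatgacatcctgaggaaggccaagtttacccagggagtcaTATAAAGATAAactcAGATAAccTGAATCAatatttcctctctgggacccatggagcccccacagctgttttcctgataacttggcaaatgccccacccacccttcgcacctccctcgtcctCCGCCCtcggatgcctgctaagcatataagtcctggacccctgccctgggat
Muc6: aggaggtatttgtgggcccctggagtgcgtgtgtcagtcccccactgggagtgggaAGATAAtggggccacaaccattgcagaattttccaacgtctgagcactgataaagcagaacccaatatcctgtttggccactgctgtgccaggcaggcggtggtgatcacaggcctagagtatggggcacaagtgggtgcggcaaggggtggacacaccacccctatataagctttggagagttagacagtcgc
The motif searched for GATA factors was AGATAA and that for forkhead factors TGTTTAC. The TATA box was searched as TATAAA, and the box bound by SP and KLF factors as GGGCGG. The AP-1 motif was TGANTCA. The forkhead motif had no match in these 4 windows, and it occurs in 3.17% of all promoters. The HNF1 motif, searched as GTTAAT, had no match in them either, and it occurs in 6.43% of all promoters. The Muc2 promoter held AGATAA at 2 places, the upstream of which overlaps a TATAAA that begins at base -174, and it also held GGGCGG and TGANTCA at 1 place each. Muc6 held AGATAA at 1 place and no other motif. AGATAA occurs in 9.99% of the 32851 RefSeq promoters of the same length. Muc1 held GGGCGG at 2 places (32.7% of all promoters have at least 1) and TATAAA from base -31 before its start. Of all promoters, 12.4% hold TATAAA anywhere in the 250 bases, on either strand. Muc13 held TGANTCA (6.75% of all promoters) as its single match. A match describes letters only and was not taken as a bound site. RefSeq promoters were matched for 5 members (Muc4 is the fifth), and the start of the Muc6 promoter lies 74 bases from the one in the deposited table.

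Values are signal per kilobase, the deposited mean per base times 1000. Promoter values turned out to be whole numbers of read ends on a scale of their own in each library: 100% of values times 6000 lay within about 1 hundredth of a whole number of steps, and 1 read end was worth 0.0548 to 0.0575 signal per kilobase. The 6 promoter libraries held 4323375 to 6621300 read ends in all windows. Between 67.3% and 81.7% of positive counts were even, so 2 read ends were taken as 1 fragment for the exact Poisson intervals (95%) given below, which cover counting error only and not the spread between cultures. A log2 ratio below is that of KO over WT after a floor, the 25th percentile of the positive values of the pair, was added to both, and a gene entered if its mean over the pair reached that floor. Members were counted at a difference of at least 1.5-fold on this scale, which understates the ratio of the plain values at low genes. Among 8 ductal and epithelial markers, 6 to 7 lay above the median H3K27ac of all genes in each library, and none was at 0, against 1 to 2 of 6 leukocyte markers. Epcam was not above it in either vitro library or in WT without that label, nor Cdh1 in vitro KO, nor Cldn4 in KO without the label. Without the label 4 of 6 fibroblast markers lay above it in KO and 5 in WT, and 2 and 4 of 6 acinar markers. In the vitro pair these were 2 and 0 fibroblast and 0 and 1 acinar markers. Of 4 endothelial markers 0 to 2 lay above it. H3K36me3 over the Setd2 gene body itself was 2.32 in KO, against 2.38 in WT, which measures chromatin and does not check the deletion. The scaling of the libraries is not stated. If each was scaled to a common total, a change of a mark shared by all genes would not show. Close H3K36me3 values below therefore do not mean that the mark was kept in KO.

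Muc1, the transmembrane mucin of ductal cells (chromosome 3, 89229057 to 89233381, mm10, plus strand), had the most acetylated promoter of the members in all 4 H3K27ac libraries. In the vitro pair its H3K27ac signal per kilobase was 138 in KO (interval 130 to 146, 2411 read ends) and 112 in WT (105 to 119, 1941 read ends), which put it at percentile 99.8 and 99.7 of all genes of those libraries (log2 ratio 0.30). In the other pair, without the vitro label, it had 42.7 in KO (38.6 to 47.2) and 53.9 in WT (49.3 to 59.0), percentiles 93.3 and 99.6 (log2 ratio -0.31). The direction thus differed between the pairs, and neither difference reached 1.5-fold. In the pair without the vitro label the Muc1 ratio was -1.05 with quantile normalization and -1.09 with the level trend removed, which makes it lower in KO by the same threshold. The start of Mtx1, a mitochondrial import gene, lies 1969 bases from that of Muc1, so their promoter windows share bases if they are centred on the start. Mtx1 had 57.4 in KO and 80.3 in WT in the vitro pair, and 31.5 in KO against 20.5 in WT in the other pair, in each case the opposite direction to Muc1.

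The other marks at Muc1 were both lower in KO. H3K27me3 at its promoter was 0.990 in KO, against 2.96 in WT (log2 ratio -0.83), on only 18 and 54 read ends, and the counting intervals did not overlap (0.452 to 1.88 and 1.95 to 4.31). Gene-body H3K36me3 was 15.2 in KO and 37.2 in WT (log2 ratio -1.16, counting intervals 12.3 to 18.6 and 32.6 to 42.3). The H3K36me3 difference stayed at or past 1.5-fold under each of the 8 processing alternatives, with ratios from -1.26 to -0.59. Dropping the filter leaves such a ratio unchanged, and averaging repeated rows acts only through the floor because each member has a single row. The same holds for the other members past the floor, so tallies of alternatives include settings that could hardly move a call. Muc1 is 4326 bases long in RefSeq. Over genes shorter than 5000 bases that passed the floor, the H3K36me3 log2 ratios had a standard deviation of 3.04. The neighbour Mtx1 had H3K36me3 of 20.9 in KO and 0 in WT.

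Muc13, a transmembrane mucin of the gastrointestinal lining (chromosome 16, 33794037 to 33819934, mm10, plus strand), showed the widest acetylation difference. Its promoter H3K27ac without the vitro label was 31.7 in KO (28.1 to 35.5, 578 read ends) and 4.77 in WT (3.45 to 6.42, 86 read ends), a 6.64-fold ratio (counting interval 4.81 to 9.37). The log2 ratio of 2.12 ranked 15th from the highest among 18673 genes, and it ranged from 1.18 to 2.57 over the alternatives. In the vitro pair Muc13 had 17.4 in KO (14.7 to 20.4) and 11.8 in WT (9.66 to 14.4), a log2 ratio of 0.48 that did not reach 1.5-fold. The WT library without the vitro label therefore stood lowest of the 4 and the KO library of the same pair highest. In that pair the summed H3K27ac signal of other marker lists also differed: it was 333 in KO and 191 in WT over 8 ductal and epithelial markers, 91.0 and 62.4 over 6 fibroblast markers, 59.2 and 35.9 over 6 leukocyte markers, 29.5 and 32.8 over 4 endothelial markers, and 33.2 and 72.3 over 6 acinar markers. The medians of the lists were 35.6 in KO and 21.0 in WT for ductal and epithelial, 9.78 and 11.1 for fibroblast and 3.07 and 3.99 for leukocyte markers. They were 5.04 and 8.04 for endothelial and 4.16 and 13.1 for acinar markers. The fibroblast and leukocyte medians thus went the other way from their sums, and Cd68 alone had 46.0 in KO and 16.2 in WT. The mean over all genes was 14.4 in KO and 10.4 in WT. The only one of these markers at 0 was the acinar gene Prss1, in KO. Above the median of all genes lay 7 and 7 of the ductal and epithelial markers, 4 and 5 of the fibroblast, 1 and 2 of the leukocyte, 1 and 2 of the endothelial and 2 and 4 of the acinar markers. The part of cell composition in the Muc13 difference was not tested. In bulk chromatin, fewer cells with a mark and less of the mark per cell cannot be told apart.

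Acetylation and H3K36me3 did not point the same way at Muc13. Gene-body H3K36me3 was 2.43 in KO and 7.22 in WT (log2 ratio -0.96), with 178 and 534 read ends over the gene, and of the alternatives this difference was under 1.5-fold only with a pseudocount 5 times larger. Of the genes past the floor, 21.3% had a lower H3K36me3 ratio. Over genes of 20000 to below 70000 bases past the floor, which include Muc13, these log2 ratios had a standard deviation of 0.897. H3K27me3 at its promoter was low, 2.97 in KO against 1.43 in WT (log2 ratio 0.61, 54 and 26 read ends), and the counting intervals overlapped.

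Muc4, a transmembrane mucin that partners the receptor ErbB2 (chromosome 16, 32735886 to 32782391, mm10, plus strand), lay above the median of all genes in every H3K27ac library. Its H3K27ac was 18.1 in KO (15.4 to 21.1) and 11.6 in WT (9.52 to 14.1) in the pair without the label (log2 ratio 0.52), and 7.66 in KO and 7.59 in WT in the vitro pair (0.01). Gene-body H3K36me3 was close in both genotypes, 8.45 in KO and 7.49 in WT (0.13), on 1112 and 996 read ends. H3K27me3 was 2.42 in KO and 0.877 in WT (0.71), which rests on 44 and 16 read ends. Like that of Muc13, this H3K27me3 difference was under 1.5-fold with 4 of the 7 alternatives that could be run.

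**Figure D1:**
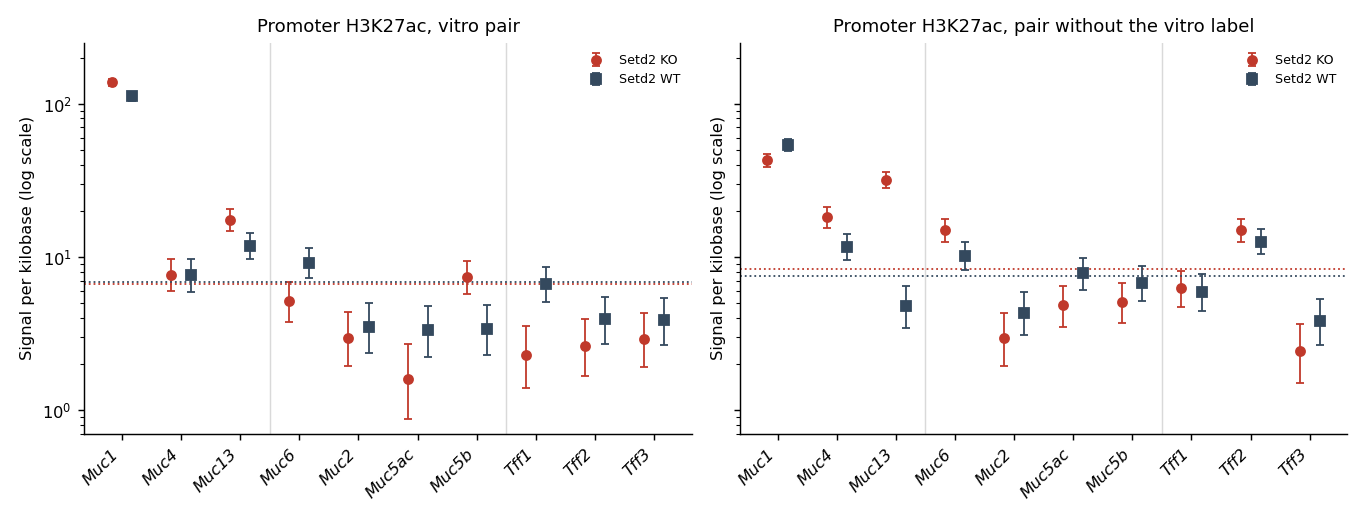
Promoter H3K27ac signal per kilobase (log axis) of the 10 members in the vitro pair (left) and the pair without the vitro label (right). Each circle (Setd2 KO) or square (Setd2 WT) is 1 library, bars are 95% counting intervals, dotted lines are the medians of all genes, and grey lines separate transmembrane mucins, gel-forming mucins and trefoil factors. Muc1 stands highest in every library, and Muc13 shows the widest gap between genotypes, 31.7 in KO and 4.77 in WT, in the right panel.

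The 4 gel-forming mucin genes lie within 239.6 kilobases on chromosome 7 (141633456 to 141873084, mm10), in the order Muc6, Muc2, Muc5ac, Muc5b. Their promoters all lay above the median H3K27me3 of all genes. H3K27me3 was 6.05 to 15.1 in KO and 10.47 to 19.8 in WT, percentiles 63.7 to 82.3 and 77.4 to 87.3 of all genes. H3K27ac over the 4 libraries was 1.60 to 14.9, percentiles 20.5 to 64.8, with Muc6 at the upper end in 3 of the 4.

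Muc2, the main mucin of intestinal goblet cells (141690340 to 141754693, plus strand), had the highest H3K27me3 of the members in WT. Its signal was 12.3 in KO (10.1 to 14.8, 224 read ends) and 19.8 in WT (17.0 to 22.9, 361 read ends), a log2 ratio of -0.62. Its H3K27ac was low in every library, 2.97 in KO and 3.51 in WT in the vitro pair (log2 ratio -0.14) and 2.96 in KO against 4.32 in WT in the other pair (-0.29). H3K36me3 over Muc2 was 0.944 in KO and 3.77 in WT, which averages to less than the floor of 2.66, so it entered no count. The Muc2 promoter printed above is the one with AGATAA at 2 places.

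Muc5b, a mucin of airways and salivary glands (141839070 to 141873084, plus strand), had opposite differences in H3K27me3 and vitro H3K27ac. The H3K27me3 labels lack the word vitro. H3K27me3 was 6.05 in KO (4.56 to 7.87) and 12.2 in WT (10.01 to 14.7), a log2 ratio of -0.85. H3K27ac in the vitro pair was 7.38 in KO (5.69 to 9.41, 129 read ends) and 3.39 in WT (2.28 to 4.85, 59 read ends), a log2 ratio of 0.78. In the pair without the label H3K27ac was 5.04 in KO and 6.76 in WT (-0.27), the same direction as H3K27me3, with overlapping intervals. The 1.5-fold acetylation difference was thus seen in the vitro pair alone. H3K36me3 was 11.7 in KO and 11.9 in WT (-0.02).

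Muc5ac, the mucin of gastric surface cells (141788972 to 141819231, plus strand), differed most in H3K36me3. Its gene body had 2.34 in KO (1.90 to 2.84, 200 read ends) and 15.1 in WT (14.0 to 16.4, 1310 read ends), a log2 ratio of -1.83 that stayed past 1.5-fold under all 8 alternatives (-2.45 to -0.86). Of the genes past the floor, 10.1% had a lower ratio, and the standard deviation for its length class, that of Muc13, was 0.897. Promoter H3K27ac was lower in KO in both pairs but under 1.5-fold once the floor was added, 1.60 in KO and 3.33 in WT in the vitro pair (-0.54) and 4.82 in KO and 7.82 in WT without the label (-0.45). The intervals of the levels overlapped, while those of the plain ratio of KO over WT lay below 1 (0.235 to 0.939 in the vitro pair and 0.413 to 0.911 in the other). With a pseudocount 5 times smaller both log2 ratios passed 1.5-fold (-0.89 and -0.63), and centred the one without the label did (-0.77). H3K27me3 was 14.1 in KO and 10.47 in WT (0.38).

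Muc6, the mucin of gastric glands (141633456 to 141655319, minus strand), had close values in H3K27me3, 15.1 in KO and 14.5 in WT (0.05), and in H3K36me3, 9.21 in KO and 9.89 in WT (-0.08). Its H3K27ac was 5.15 in KO (3.75 to 6.89) and 9.14 in WT (7.24 to 11.4) in the vitro pair (-0.63), and 14.9 in KO and 10.2 in WT without the label (0.43). The vitro difference was under 1.5-fold with 5 of the 8 alternatives.

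The 3 trefoil factor genes lie within 39.7 kilobases on chromosome 17 (31125306 to 31165053, mm10), the coordinates of Tff3 being those of RefSeq. In the vitro pair all 3 had low H3K27ac, 2.29 to 2.92 in KO and 3.85 to 6.67 in WT, and all 3 were lower in KO. Tff1, the gastric surface trefoil peptide (31161396 to 31165053, minus strand), had 2.29 in KO (1.40 to 3.53, 40 read ends) and 6.67 in WT (5.06 to 8.62, 116 read ends), a log2 ratio of -0.98. Tff2, of mucous neck cells (31141049 to 31144282, minus strand), had 2.63 in KO and 3.91 in WT (-0.34), and the goblet cell peptide Tff3 2.92 in KO and 3.85 in WT (-0.24), both with overlapping intervals. In the pair without the label Tff1 had 6.24 in KO and 5.88 in WT (0.06) and Tff2 14.9 in KO and 12.6 in WT (0.20). Tff3, at 2.41 in KO and 3.83 in WT, averaged less than the floor of 3.29 in that pair.

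Promoter H3K27me3 at the trefoil factors was 8.91 to 11.2 in KO and 5.21 to 11.3 in WT. Tff1 had 11.2 in KO (9.14 to 13.6, 204 read ends) and 5.21 in WT (3.83 to 6.91, 95 read ends), a log2 ratio of 0.92. At Tff1 H3K27me3 was thus higher in KO and vitro H3K27ac lower in KO, but the H3K27me3 labels lack the word vitro. In the H3K27ac pair that also lacks it, Tff1 had 6.24 in KO and 5.88 in WT (0.06). Tff3 had 10.7 in KO and 6.85 in WT (0.54) and Tff2 8.91 in KO and 11.3 in WT (-0.30). H3K36me3 was listed at 0 for all 3 genes in WT. In KO it was 13.3 at Tff1, 1.80 at Tff3 and 0 at Tff2. Of the 6863 genes shorter than 5000 bases, 71.9% were at 0 in KO against 77.5% in WT, and 27.03% were at 0 in only 1 of the libraries. Tff1, Tff2 and Tff3 are all shorter than that, and so is Muc1.

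**Figure D2:**
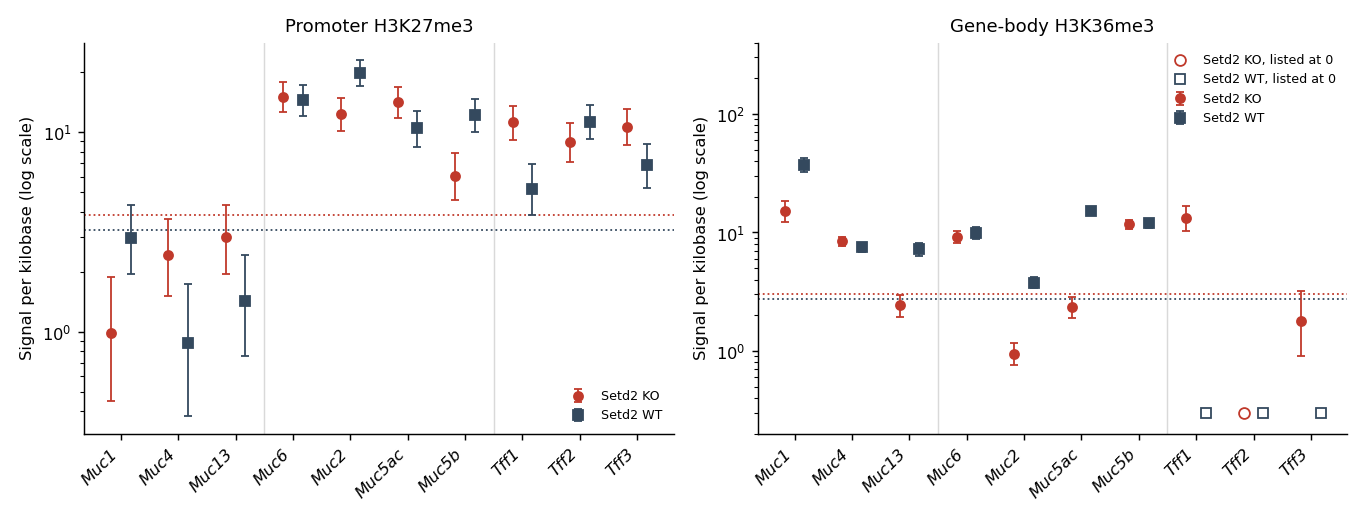
Promoter H3K27me3 (left) and gene-body H3K36me3 (right) signal per kilobase (log axes) of the 10 members, with Setd2 KO as circles and Setd2 WT as squares, 1 library each. Bars are 95% counting intervals, dotted lines the medians of all genes, and open symbols at the bottom mark genes listed at 0. In H3K27me3 the transmembrane mucins lie below both medians and the 7 secreted members above them.

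Membrane-bound and secreted members differed in the promoter marks. All 7 secreted members (gel-forming mucins and trefoil factors) lay above the median H3K27me3 of all genes in KO (3.85) and in WT (3.23), with signals of 5.21 to 19.8, whereas all 3 transmembrane mucins lay below it in both genotypes, with signals of 0.877 to 2.97. Among these 10 genes the classes did not overlap in either library. Transmembrane mucins outside them did not all follow: Muc3 had 9.68 in KO and 22.7 in WT, above the medians, and Muc20 had 2.14 in KO, below the median, and 3.84 in WT, above it. In the vitro H3K27ac libraries the 3 transmembrane mucins lay above the median of all genes in both KO (6.69) and WT (6.90), against 1 of 7 secreted members in KO (Muc5b) and 1 of 7 in WT (Muc6). In the pair without the label 3 of 3 transmembrane mucins in KO and 2 of 3 in WT lay above the median, with 2 of 7 and 3 of 7 secreted members. H3K27me3 above the median was not limited to secreted members, since 8 of 8 ductal and epithelial markers in KO and 7 of 8 in WT lay above it too. The classes are set by the proteins' known type and not by these values, and members of a cluster share a chromosomal neighbourhood.

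**Figure D3:**
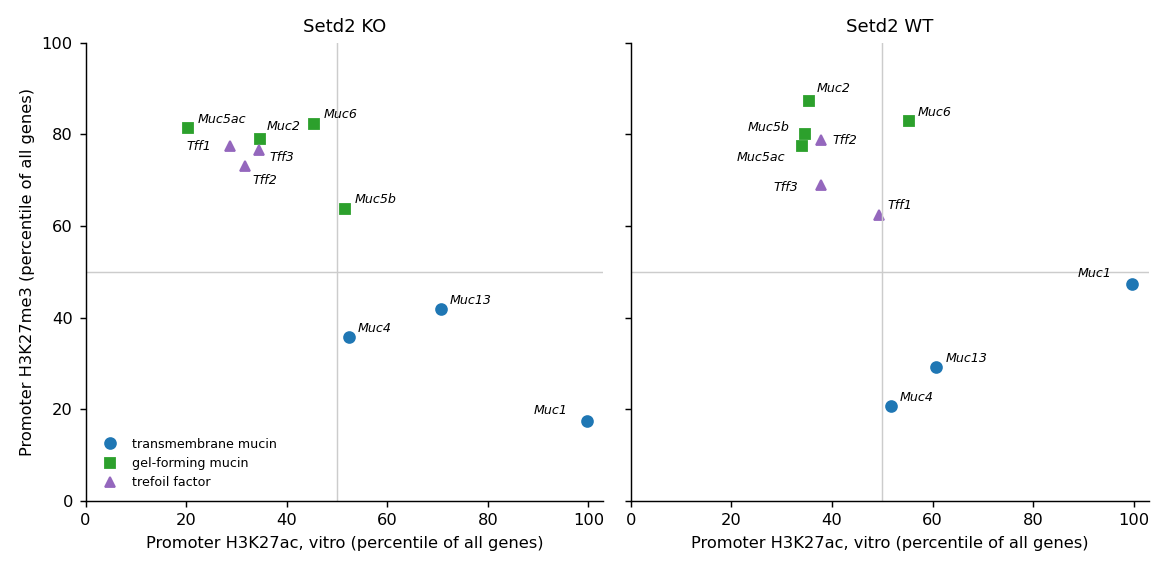
Percentile of each member among all genes for vitro promoter H3K27ac (horizontal axis) and promoter H3K27me3 (vertical axis) in Setd2 KO (left) and Setd2 WT (right), 1 library per mark and genotype, with grey lines at percentile 50. In both panels the 3 transmembrane mucins lie in the lower right quadrant, Muc1 at percentile 99.8 and 99.7 of H3K27ac. The 7 secreted members lie above the horizontal line. The H3K27me3 labels lack the word vitro.

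H3K27me3 at genes that flank the gel-forming cluster, picked after their values were seen, lay both above and below that of the cluster. Downstream of Muc5b, Tollip, an inhibitor of Toll-like receptor signalling, had 11.5 in KO and 9.54 in WT, and the neuronal kinase gene Brsk2 had 118 in KO and 71.9 in WT. On the Muc6 side the non-coding gene Gm16982 had 0.770 in KO and 0.110 in WT.

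The members were also counted in each pair. For H3K27me3, KO exceeded WT by 1.5-fold or more at 3 of 10 members (Muc4, Muc13 and Tff1, against 30.1% of all genes) and 3 were lower by as much (Muc1, Muc2 and Muc5b, against 16.8%), and the median log2 ratio was 0.22 against 0.18 over 19034 genes. Centred on the median of all genes, 23.2% of genes were higher and 22.8% lower, and 1 member (Tff1) was higher and 3 lower. In vitro H3K27ac 1 of 10 was higher (Muc5b, background 10.9%) and 2 lower (Muc6 and Tff1, background 13.6%), with medians of -0.19 for the members and -0.07 for all 18960 genes. In H3K27ac without the vitro label 1 of 9 was higher (Muc13, background 33.3%) and 0 lower (background 11.5%), with a median of 0.06 against 0.32 for all 18673 genes. The median gene of that pair was higher in KO, and centred on the median of all genes 16.8% of genes were higher and 20.7% lower, and 1 member (Muc13) was higher and 4 lower (Muc1, Muc2, Muc5ac and Muc5b). In H3K36me3 1 of 7 was higher (Tff1, background 27.1%) and 3 lower (Muc1, Muc13 and Muc5ac, background 30.3%), with medians of -0.08 for the members and -0.08 for all 15475 genes.

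**Figure D4:**
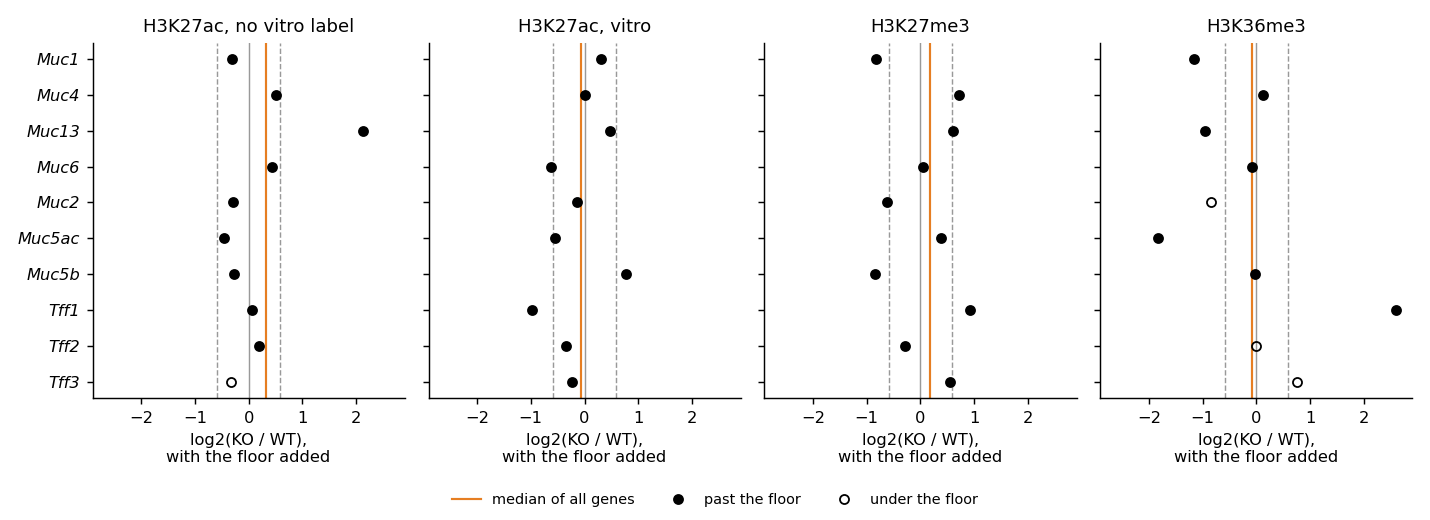
Log2 ratio of KO over WT, with the floor added to both, for the 10 members in each of the 4 pairs of libraries. Filled points passed the floor and open points did not, dashed lines mark 1.5-fold, and the orange line is the median of all genes. Muc13 stands apart in H3K27ac without the vitro label (2.12), and Muc5ac (-1.83) and Muc1 (-1.16) are the lowest in H3K36me3.

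The 2 H3K27ac pairs also differed in level at the same genes. Muc1 was higher in the vitro libraries of both genotypes, 138 against 42.7 in KO and 112 against 53.9 in WT (log2 ratio of vitro over unlabelled 1.64 and 1.01, with medians over all genes of -0.11 and 0.21). The summed H3K27ac of the 8 ductal and epithelial markers was higher there too, 501 against 333 in KO and 460.03 against 191 in WT. Their median was 33.9 against 35.6 in KO and 34.9 against 21.0 in WT. In KO Krt7, Epcam and Cdh1 were lower in the vitro library, in WT Epcam and Cldn4, and the other markers were higher. The part of these markers in the Muc1 level was not tested. Tff2 was lower in the vitro libraries, 2.63 against 14.9 in KO and 3.91 against 12.6 in WT (-1.80 and -1.18). Muc5ac was lower there as well, 1.60 against 4.82 in KO and 3.33 against 7.82 in WT. The summed H3K27ac of 6 acinar markers moved with the setting too, 13.9 against 33.2 in KO and 21.1 against 72.3 in WT, as did that of 6 fibroblast markers, 39.6 against 91.0 in KO and 22.9 against 62.4 in WT. Their part in the Tff2 and Muc5ac levels was not tested. The log2 ratio of KO over WT at Muc13 was 0.48 in the vitro pair and 2.12 without the label, a difference of -1.64. The same difference was -1.06 at Muc6, 1.05 at Muc5b, -1.04 at Tff1 and 0.62 at Muc1. Their order depended on the scaling: centred on the median of all genes Muc5b had 1.43 and Muc13 -1.25, and with the level trend removed Muc1 had 1.31 and Muc13 -1.10.

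Transcription factors that act on gut and pancreatic epithelial genes, from a list of 11, carried more H3K27me3 in KO. By 1.5-fold or more, 8 of 11 were higher and 0 lower (median log2 ratio 1.04, against 30.1% and 16.8% of all genes and a median of 0.18), among them Gata4 (170 in KO and 37.1 in WT), Gata5 (90.4 and 31.1) and Foxa3 (26.2 and 8.99). In vitro H3K27ac 6 of 11 were lower and 1 higher (median -0.68, against 13.6% lower, 10.9% higher and a median of -0.07 over all genes). Among the lower were Gata4 (1.03 in KO and 54.8 in WT), Gata5 (2.92 and 56.4), Hnf4a (9.15 and 31.9), Gata6 (30.0 and 56.3) and Foxa2 (34.5 and 56.5), and higher was the intestinal factor Cdx2 (108 and 38.2). In the pair without the label 3 of 11 were lower and 1 higher (all genes 11.5% and 33.3%), and in H3K36me3 3 of the 9 past the floor were lower and 2 higher (all genes 30.3% and 27.1%). The list was drawn up with earlier results of these libraries known and is no independent evidence of its direction.

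Genes that build and secrete mucins, a list of 26 that includes glycosyltransferases, goblet cell regulators and folding enzymes, are given by their counts. For H3K27me3, 6 of the 23 past the floor exceeded WT by 1.5-fold or more in KO and 3 were lower (median log2 ratio 0.09; all genes 30.1%, 16.8% and 0.18). Among the higher were Foxa3, as above, and C1galt1c1 (5.33 in KO and 2.08 in WT). Among the lower were Galnt5, which starts O-glycan chains (1.76 in KO and 4.88 in WT), and C1galt1, which extends them (1.10 and 3.02). The KO values of Galnt5 and C1galt1 lie near the floor of 1.54. In vitro H3K27ac 1 of 22 was higher and 3 lower (median -0.11; all genes 10.9%, 13.6% and -0.07). The O-glycan branching enzyme Gcnt3 had 3.26 in KO and 16.3 in WT, Galnt3 18.9 and 37.2, and Ern2, a stress sensor of mucous cells, 1.03 and 3.45. Higher was Gcnt4, at 13.0 in KO and 7.59 in WT. In the pair without the label 5 of 23 were higher and 4 lower (median 0.14; all genes 33.3%, 11.5% and 0.32), with the sialyltransferase St3gal1 at 48.4 in KO and 20.8 in WT, C1galt1 at 38.8 and 16.6, Galnt6 at 2.36 and 13.2, and Zg16 at 2.85 and 17.1. In H3K36me3 3 of 15 were higher and 6 lower (median -0.23; all genes 27.1%, 30.3% and -0.08). Galnt4, Spdef and Ern2 were at 0 in the KO library, against 24.2, 17.9 and 6.25 in the WT library. Klf4 was among the higher, at 28.8 in KO and 7.34 in WT. A value of 0 in only 1 of the H3K36me3 libraries was found for 27.03% of all genes shorter than 5000 bases. That share was 34.4% for genes of 5000 to below 20000 bases and 7.87% for those of 20000 to below 70000. Spdef and Foxa3 stand in both this list and that of transcription factors.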

How the data were processed

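The authors deposited 1 table with 8 columns of signal (coverage per base over promoters or gene bodies), whose scaling, promoter window and duplicate filter the sources used here do not state. Bowtie2 2.4.2, MACS2 2.2.7.1, HOMER and the build mm10 are named per the submitters' processing notes, without order or settings. Promoter values multiplied by 6000 were whole hundredths, and 6000 bases were taken as the window. Of 25450 rows, 211 repeated a gene and the row with the highest mean was kept. Read ends were recovered by searching for the step that low values are multiples of. In H3K36me3 this used gene lengths, with at least 99.7% of the values whole. With 1 library per group no count test could be made, so no gene is called by one. Floors were 2.66 for H3K36me3, 2.18 for vitro H3K27ac, 3.29 for the other H3K27ac pair and 1.54 for H3K27me3. The code was tested on simulated data with known changes. Members, lists, motifs and thresholds were chosen with earlier results of these data known, and the use of 2 read ends per fragment after the values were seen. All members and transcription factors could be named, and of each other list up to 4 genes with the widest ratio per comparison; some planned results are not reported here. Alternatives in pseudocount, filter, floor, scaling and joining of rows were run. Python 3.11.15, NumPy 2.4.6, SciPy 1.17.1, pandas 2.3.3 and statsmodels 0.14.6 were used.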

Additional observations from a re-analysis of the deposited data

How the results depend on the processing

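Ratios were recomputed with the pseudocount divided or multiplied by 5, unfiltered, with the floor raised to the pair's median positive value, centred, quantile-normalized, with the level trend removed, and with repeated rows averaged. Unfiltered, the ratio of a member stays the same, and averaging rows acts on it only through the floor. Those settings can hardly change the call of a member past the floor. Counts of members past 1.5-fold in KO moved easily, being small. In H3K36me3 the 1 higher and 3 lower became 2 and 4 with no filter, and 2 lower were left with the larger pseudocount. In H3K27ac without the vitro label, the 1 higher and 0 lower became 2 and 1 with the smaller pseudocount, and the number lower became 4 with centring, 1 with quantile normalization and 1 with the trend removed. In vitro H3K27ac, the 1 higher and 2 lower became 0 and 0 with the larger pseudocount and 0 and 0 with the higher floor, the smaller pseudocount gave 3 lower, and 1 lower was left with centring, with quantile normalization and with the trend removed. In H3K27me3, the 3 higher and 3 lower became 0 and 0 with the larger pseudocount and 1 and 1 with the higher floor, the smaller pseudocount gave 4 higher, and 1 higher was left with centring, with quantile normalization and with the trend removed. The differences that kept 1.5-fold under all 8 alternatives were Muc13 in H3K27ac without the vitro label and Muc1, Muc5ac and Tff1 in H3K36me3; Tff1 is listed at 0 in WT, so its ratio is set by the pseudocount (1.00 to 4.71). A larger pseudocount or floor shrinks ratios of low genes by construction; the cause of the other moves was not tested. Depth limits the values with few read ends, such as 16 to 54 for H3K27me3 of the transmembrane mucins, 28 for Muc5ac in vitro H3K27ac and 22 for H3K36me3 of Tff3, each in KO or WT. No paired analysis was possible because each group has 1 library.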

Other observations

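Other mucin genes were described from a list of 11, of which 6 were measured and 5 passed the floor in each promoter comparison. By 1.5-fold or more, H3K27me3 was higher in KO at 2 of 5 and lower at 1 (all genes 30.1% and 16.8%). For vitro H3K27ac these counts were 0 and 1 (all genes 10.9% and 13.6%). Without the label they were 1 and 2 (all genes 33.3% and 11.5%). Of 4 past the floor in H3K36me3, 3 were higher and 0 lower (all genes 27.1% and 30.3%). Among these, Cd164 and Muc20 were listed at 0 in WT. Cd164 had the widest H3K27me3 ratio of the list, at 4.62 in KO and 0.438 in WT (log2 ratio 1.64). Its H3K27ac without the vitro label was 36.8 in KO against 21.3 in WT (0.71). The vitro libraries differed the other way at Cd164, 30.7 in KO against 50.2 in WT (-0.67). Muc3, an intestinal transmembrane mucin, carried H3K27me3 at its promoter, at 9.68 in KO against 22.7 in WT (log2 ratio -1.11). Mcam, an adhesion molecule also called mucin 18, had 77.5 in KO and 39.7 in WT (0.94). The endothelial sialomucin Emcn had H3K27ac without the vitro label of 1.04 in KO and 6.87 in WT (-1.23). Muc20, a transmembrane mucin, had 7.89 in KO and 15.2 in WT in that pair (-0.73) and 21.1 in KO and 16.7 in WT in the vitro pair (0.30).

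Of 12 genes listed for the stomach, 3 of the 8 past the floor were at least 1.5-fold higher in H3K27ac without the vitro label and 0 lower (median 0.21, against 33.3% higher, 11.5% lower and a median of 0.32 over all genes). Cldn18, the tight junction claudin of the stomach, was higher in KO in both pairs, at 33.8 in KO against 12.6 in WT in that pair (1.22) and 44.8 in KO and 25.1 in WT in the vitro pair (0.79). In the vitro pair 2 of 10 were higher and 3 lower (all genes 10.9% and 13.6%). Gkn3, a gastrokine, had 10.6 in KO and 3.05 in WT there (1.29). Anxa10, an annexin of gastric cells, had 0.343 in KO and 5.11 in WT in the vitro pair (-1.53), and the stem cell antigen Psca 13.5 in KO and 25.6 in WT (-0.83). In H3K27me3 3 of 11 were higher and 2 lower (median -0.01; all genes 30.1%, 16.8% and 0.18), with Barx1, a stomach homeobox gene, at 165 in KO and 101.1 in WT and Sox2 at 130 in KO and 79.9 in WT.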
